A study of Homo sapiens with 8 samples.

Results

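The regions described here are 499 stretches of 1000 bases, called tiles, that were highly methylated in the earliest cultures and had lost a large part of that methylation by the middle of the passage series. Tiles were cut along the autosomes of genome build hg19 at fixed positions. A tile entered when 3 or more of its CpGs had 5 or more reads in every library, which left 105631 tiles. Of these, 42917 were at least 70% methylated in all 3 libraries of passages 6, 7 and 8 and are called starting tiles. The 499 early-falling tiles, 1.16% of the starting tiles, are those whose mean over passages 11, 13 and 17 lay at least 25 percentage points below their mean over passages 6 to 8. The other 42418 starting tiles serve as the comparison.

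The cells were HUES64, an established human embryonic stem cell line, with knockouts of both DNMT3A and DNMT3B. CpG methylation was measured by reduced representation bisulfite sequencing (RRBS), which samples fragments around CpG-rich sites and tells methylated from converted, unmethylated cytosines. There was 1 library at each of passages 6, 7, 8 (early), 11, 13, 17 (middle), 27 and 28 (late). All 8 libraries carry both knockouts, and no library of unedited HUES64 cells was analysed here. Whether 1 culture or clone was followed through the passages is not stated in the labels. The p-values below therefore measure only how these libraries spread, and that spread may be technical.

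DNMT3A and DNMT3B are the enzymes that place methyl groups on unmethylated CpGs. DNMT1 copies an existing methylation pattern onto the new DNA strand after replication, and it was not named among the genes disrupted in these cells. In a cell without the first pair, a CpG that is copied imperfectly cannot be methylated anew by them, and embryonic stem cells are a setting in which both are normally active.

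Library depth ranged from 19898423 reads over listed CpGs at passage 11 to 44599588 at passage 6. In the early-falling tiles, the shallowest library held a median of 32 reads per tile (15 to 234), against a median of 34 in the other starting tiles. Because levels from so few reads are imprecise, the 92 early-falling tiles with 5 or more used CpGs and 50 or more reads in every library are given beside the whole set and are called deeply read tiles. Their use as an alternative to the whole set was chosen after seeing the data.

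The early-falling tiles were moderately to fully methylated at the start and stood near the middle of the scale by passage 17. Their median level was 83.2, 84.2 and 83.0% in the early libraries (passages 6, 7 and 8), then 60, 51.1 and 45.7% in the middle ones (11, 13 and 17). These 6 values chose the tiles, so they are a description with no test. The median fall from early to middle passages was -29.6 points, with a range from -25 to -63.9. Over the same passages the median of the other starting tiles went from 88.7% at passage 6 to 85.7% at passage 17. At passages 27 and 28, which played no part in the choice, the early-falling tiles had medians of 47.5% and 41.7%.

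**Figure D1:**
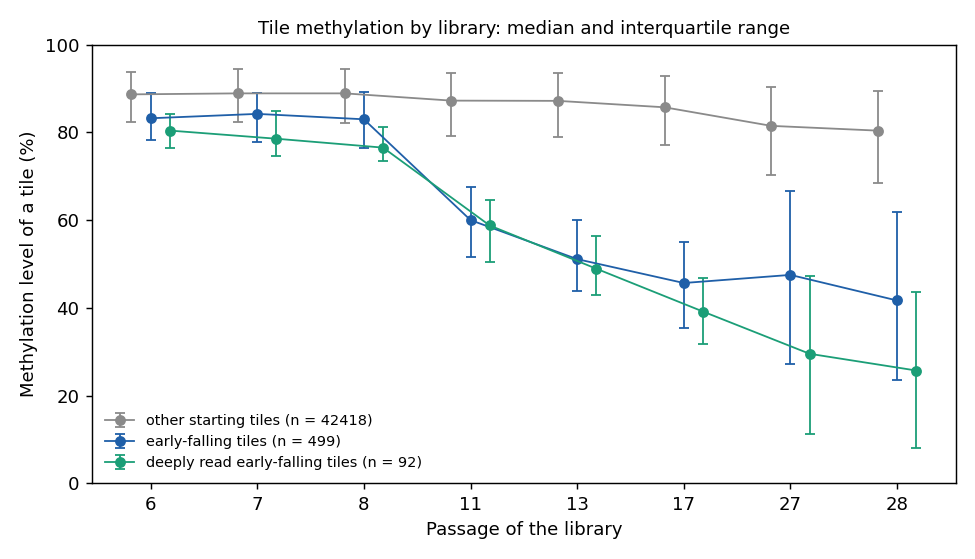
Median tile methylation level in percent (points) with the interquartile range over tiles (bars) in each of the 8 libraries, for the 499 early-falling tiles, the 92 deeply read ones among them and the 42418 other starting tiles. The early-falling tiles drop from 83.0% at passage 8 to 45.7% at passage 17 by their choice, and their interquartile range is widest at passages 27 and 28.

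The fall was spread over the middle passages and was not complete at passage 11 in most of these tiles. At passage 11, 209 of the 499 stood 25 points or more under their early mean. The number was 356 at passage 13 and 433 at passage 17. The rule used only the mean of passages 11, 13 and 17 and not their order. The lowest of the 3 was passage 17 in 283 tiles, passage 13 in 149 and passage 11 in 67. From passage 11 to passage 17 the median change was -15.3 points and 393 tiles were lower (78.8%, Wilson 95% interval 75 to 82.1%). Here and below, intervals cover counting error only, and reads copied by PCR are not independent molecules. In the other starting tiles the median change over the same step was -1.26 points, and 55.6% were lower. Because tiles with a low passage 17 pass the rule more easily, this order is partly tied to the choice.

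Leaving a middle library out of the choice gives its level without that library's own part in the choice. The early mean it is set against still helped choose the tiles, so a lower level there is partly built in. Chosen on passages 11 and 13 alone, 417 tiles met the rule. Their median was 84.1% early, then 57.5, 49.0 and 54.9% in order of the middle passages, and 59.2% of them stood 25 points or more below the early mean at the passage left out. Chosen without passage 13, 40.4% of 626 tiles met that depth of fall at passage 13. Chosen without passage 11, 18.5% of 917 tiles met it at passage 11. Of the 42418 other starting tiles, 2.95, 1.51 and 1.09% met it at passages 17, 13 and 11. These tiles were set apart with all middle libraries in use, so their low shares are partly built in. For deeply read tiles the shares were 76.8% of 56 tiles at passage 17, 48.2% of 112 at passage 13 and 12.7% of 189 at passage 11. A library that had no part in the choice was below the early mean in 841 of 917, 596 of 626 and 406 of 417 tiles, for passages 11, 13 and 17, but by 25 points in fewer of them.

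The opposite change was rare at the same depth. Of 36540 tiles at 30% or less in each of passages 6 to 8, 2 rose by 25 points or more at the middle passages (0.00547%). Tiles next to the limit did not form a separate group. The 79 tiles with a fall of 25 to 26 points had a median of 84.0% early, 58.4% at the middle and 48.9% at late passages. The 81 starting tiles just outside, with a fall of 24 to 25 points, had 85.2%, 60.6% and 52.7%.

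CpGs of the same tiles that were too thinly read to enter the rule also fell, and they kept falling to the last passages. The early-falling tiles held 2113 CpGs that chose them and 2012 listed CpGs that did not. In pooled reads, the CpGs that were not used stood at 74.1, 74.4 and 71.8% in the 3 early libraries. They were at 61.1, 59.5 and 53.2% in the middle ones, a smaller fall than the 82.4% to 43.6% between passages 6 and 17 at the CpGs that chose the tiles. At passages 27 and 28 they went on to 36.2% and 31.7%, below the 42.6% and 38.3% of the used CpGs. The pools weigh the tiles differently. Of the unused CpGs, 887 lay in the 138 tiles called lower at late passages (described below), against 715 of the used CpGs.

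In the other starting tiles, CpGs that were not used went from 81.9% at passage 6 to 78.5% at passage 17 and 70.3% at passage 28. The unused CpGs of early-falling tiles thus started lower and ended far lower, and their Wilson interval at passage 28 was 31.0 to 32.5% over 15346 reads against 70.2 to 70.3%. The 1525 unused CpGs read at least once in every library gave 73.8, 53.1 and 31.6% for passages 6, 17 and 28, so the fall was as large over a fixed set of CpGs. Used and unused CpGs of a tile can lie on the same reads, and no test was made.

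**Figure D2:**
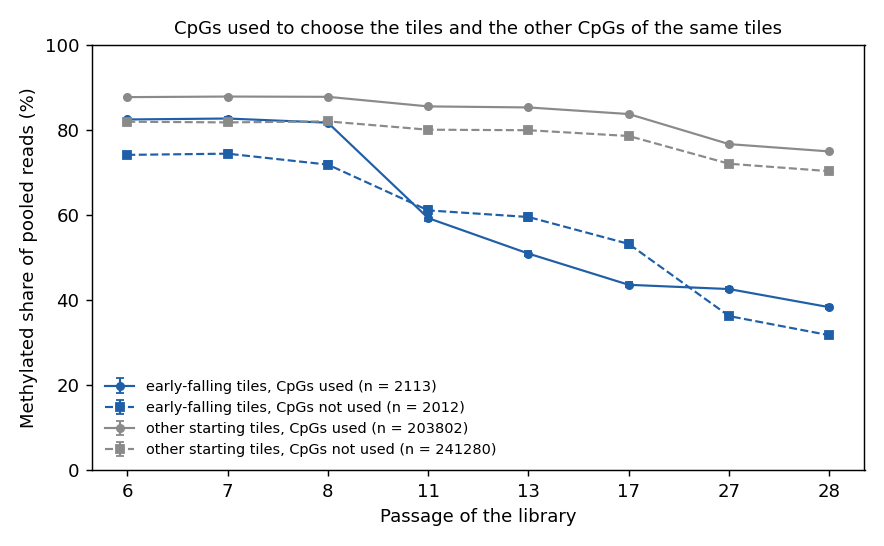
Methylated share of pooled reads in percent by library, for CpGs that chose the tiles (solid lines) and the remaining listed CpGs of the same tiles (dashed lines), in early-falling and in other starting tiles. Bars are Wilson 95% intervals; the unused CpGs of early-falling tiles go from 74.1% at passage 6 to 53.2% at passage 17 and 31.7% at passage 28.

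Within a tile the fall was shared by most of the used CpGs. Of 2113 used CpGs, 1750 (82.8%) fell by 10 points or more between pooled early and pooled middle reads, 1272 (60.2%) fell by 25 points or more, and 110 rose. In 218 tiles every used CpG fell by 10 points or more, and in 281 at least 1 CpG did not. The used CpGs of a tile spanned a median of 143 bases. This fall is part of the rule's own contrast and is a description only.

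From middle to late passages some early-falling tiles were called lower, fewer were called higher, and most were not called, which does not show that those were level. Late levels were compared with middle levels by a quasi-binomial model of methylated and unmethylated reads, fitted to every tile with 10 reads of each state, with limma's moderated dispersion. A tile was called at a Benjamini-Hochberg adjusted p under 0.05 over all 72839 tiles tested and a change of 10 points or more. Of the 499 early-falling tiles, all tested, 138 were lower at late than at middle passages (27.7%), 44 were higher (8.82%) and 317 were not called. Over all tested tiles, 24.4% were called lower and 0.714% higher. The share called lower is close to that background. Of the other starting tiles, 7424 of 39731 tested (18.7%) were called lower and 255 (0.642%) higher, both under the Wilson intervals of the early-falling tiles, 23.9 to 31.7% and 6.63 to 11.6%. Middle levels enter both the choice and this comparison, so low middle levels picked by the choice and a later rise cannot be told apart in the used CpGs.

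The median late minus middle difference was -7.77 points in the early-falling tiles, with an interquartile range from -24.3 to 8.19, and -4.64 in the other starting tiles (-12.4 to 0.224). The late mean was below the middle mean in 307 of 499 early-falling tiles (61.5%, Wilson interval 57.2 to 65.7%), against 73.8% of the other starting tiles. From passage 17 to passage 27 the 499 tiles had a median change of 0.685 points, with 242 lower and 254 higher. To passage 28 it was -3.21 points, with 274 lower and 223 higher. The other starting tiles had medians of -3.85 and -4.76 points over these steps. The deeply read tiles had larger falls, with medians from passage 17 of -8.85 points to passage 27 and -9.60 to passage 28. Of these 92, 52 were called lower (56.5%, Wilson interval 46.3 to 66.2%), 4 higher and 36 not, with a median difference of -19.2 points. Among other starting tiles of the same depth, 2927 of 9479 tested (30.9%) were called lower and 35 higher, with a median difference of -5.91 points over 9545.

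These counts depended on the settings. With a start of 80% or more, the median late minus middle difference of 194 tiles was 0.972 points, so the direction turned. Without passage 8 the rule found 833 tiles, of which 272 were called lower, and without passage 11 it found 917, of which 103 were called higher. Over all tiles tested, 24.1% were called lower without passage 8 and 0.827% higher without passage 11. With either late library left out, 1 late library remained and the 44 rises became fewer, as did the rises over all tiles tested. They were 18 among early-falling tiles with limma on logit levels (0.502% of all tiles tested).

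Late levels of the early-falling tiles spread over the whole scale, and the 2 late libraries gave much the same order. The SD over the 499 tiles was 5.91 points for the early mean, 8.54 for the middle mean and 24.6 for the late mean, of which the first and second are narrowed by the rule. Levels at passages 27 and 28 correlated over tiles at r = 0.845 and rho = 0.839 (n = 499 tiles, which share the 2 libraries), and at r = 0.924 in the 92 deeply read tiles. The other starting tiles were alike in this, at r = 0.842 and rho = 0.775. Both late libraries lay 10 points or more below the middle mean in 186 tiles and 10 points or more above it in 78. They lay 10 points or more on opposite sides of it in 15. Among the 42418 other starting tiles these counts were 9082, 646 and 213.

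**Figure D3:**
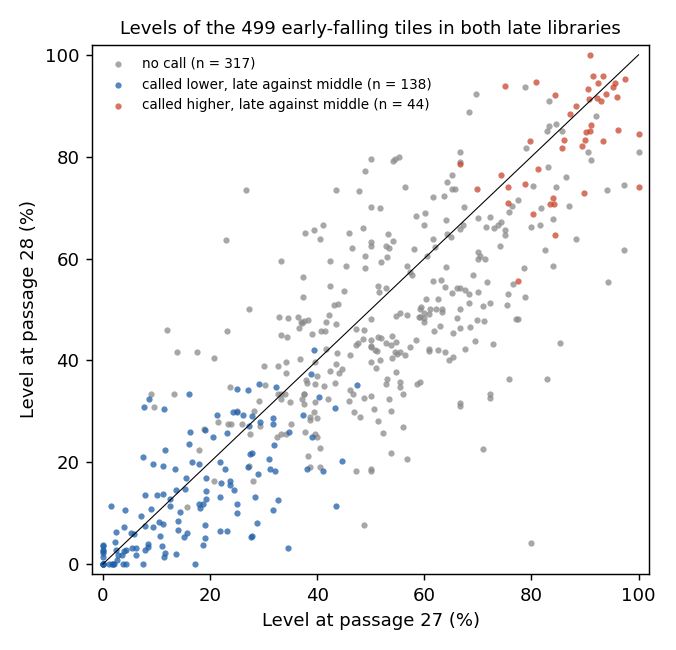
Level at passage 28 against level at passage 27, both in percent, for each of the 499 early-falling tiles, coloured by the call of late against middle passages. The 138 tiles called lower lie toward the lower left, the 44 called higher toward the upper right and the 317 without a call between and around them, with the line of equal levels drawn.

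By the mean of passages 27 and 28, 95 early-falling tiles (19%) ended under 20%, 194 between 20 and 50%, 128 between 50 and 70% and 82 (16.4%) at 70% or more. Of the other starting tiles, 544 (1.28%) ended under 20% and 31876 (75.1%) at 70% or more. Among deeply read early-falling tiles, 34 of 92 (37.0%) ended under 20% and 5 at 70% or more. In the 95 tiles that ended lowest, the median level had gone from 78.9% early and 47.5% at middle passages to 9.54%. In the 82 that ended highest it had gone from 88.9% to 61.0% and back to 82.5%. Both late libraries were within 10 points of the early mean, or above it, in 33 of the 499 tiles and in 0 of the 92 deeply read ones. The same held in 20714 of the 42418 other starting tiles.

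The tiles called higher behaved differently at CpGs outside the choice. In the 44 tiles the 169 used CpGs stood at 87.5% at passage 6, at 51.4 and 52.9% for passages 13 and 17, and at 85.6 and 82.8% for the late libraries, in pooled reads. Their 110 unused CpGs stood at 82.5% at passage 6, at 71.9 and 71.9% for passages 13 and 17, and at 74.8 and 73.6% for the late libraries. The drop after passage 6 was thus far smaller at the unused CpGs. The Wilson intervals of passage 17 (68.1 to 75.4%) and passage 28 (70.3 to 76.7%) overlap there, and a rise was not detectable at those CpGs at this depth.

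In the 138 tiles called lower, the unused CpGs followed the used ones. There, 887 unused CpGs went from 71.7% at passage 6 to 46.6% at passage 17 and to 18.3 and 15.1% in the late libraries. The 715 used CpGs of the same tiles went from 79.9% to 38.7%, 17.0% and 14.3%. In the 317 tiles without a call, 1015 unused CpGs went from 57.0% at passage 17 to 47.9% and 42.7% at late passages, while 1229 used CpGs went from 45.3% to 52.8% and 47.5%.

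The deepest early falls among deeply read tiles brought levels from above 70% to under 40% on average. On chromosome 22 at 43817001 to 43818000 (hg19, 7 used CpGs), the level was 80.5, 70.1 and 74.8% at passages 6, 7 and 8, then 43.9, 33.6 and 11.6% at passages 11, 13 and 17, and 1.92 and 0% at passages 27 and 28. The late libraries lay below all the others, and the late minus middle change was -28.7 points (limma-moderated F test, adjusted p = 0.000101). The tile on chromosome 21 at 46813001 to 46814000 (6 used CpGs) had 81.2, 74.0 and 77.3% early, 31.9, 48.4 and 19.6% at middle passages, and 2.50 and 6.25% at late ones (change -28.9 points, adjusted p = 0.000343).

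On chromosome 19 at 1647001 to 1648000 (6 used CpGs) the levels were 73.6, 72.0 and 79.7% early, 53.5, 35.3 and 6.33% at middle passages, and 0 and 3.80% late. This tile was almost bare by passage 17, and the 3 groups of libraries did not overlap (late minus middle change -29.8 points, adjusted p = 0.00103). Each of these 3 calls was lost when tiles with few reads of a state were tested too.

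In the other tiles of this group the middle and late libraries overlapped. On chromosome 9 at 140681001 to 140682000 (12 used CpGs), levels of 72.8, 72.8 and 77.5% early became 43.3, 28.1 and 19.5% at middle passages and 17.9 and 22.4% at late ones. Passage 17 lay between the late libraries there, and the change of -10.1 points was not called (adjusted p = 0.169, and 0.0220 without passage 17). The tile on chromosome 8 at 2263001 to 2264000 (5 used CpGs) had 77.7, 71.9 and 72.9%, then 49.5, 17.0 and 25.3%, then 19.1 and 5.13%. It was called lower, but its change of -18.5 points barely passed (adjusted p = 0.0472) and lost its call in 10 of 18 alternatives, among them without any 1 of passages 6, 7, 8, 11 and 28 (adjusted p 0.0514 to 0.403).

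The tile on chromosome 11 at 1151001 to 1152000 (5 used CpGs) had a late mean between its early and middle means. It had 89.9, 89.3 and 71.7% early, 58.7, 30.4 and 27.1% at middle passages, and 65.4 and 40.7% at late ones. Its late libraries differ by more than 20 points, and the difference of 14.3 points was not called (adjusted p = 0.287, and 0.0495 without passage 11).

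The largest further falls ended with methylation nearly gone. On chromosome 19 at 42777001 to 42778000 (7 used CpGs) the level was 84.2, 87.2 and 93.8% early, a flat 63.3, 62.8 and 62.7% at passages 11, 13 and 17, and 1.2 and 0% at passages 27 and 28. The change of -62.3 points (adjusted p = 2.12e-09) was the largest fall of any early-falling tile, and middle levels did not drift before it. On chromosome 17 at 80708001 to 80709000 (5 used CpGs) the level went from 80.6, 90.7 and 73.4% through 66.3, 59.2 and 43.8% to 1.74 and 0% (change -55.6 points, adjusted p = 6.04e-08).

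Another tile of chromosome 17, at 79230001 to 79231000 (6 used CpGs), went from 84.6, 81.0 and 75.2% through 66.3, 60.8 and 35.4% to 2.67 and 0.719% (change -52.5 points, adjusted p = 9.83e-07). On chromosome 7 at 2968001 to 2969000 (6 used CpGs) the values were 82.4, 84.2 and 90.3%, then 52.2, 65.6 and 52.3%, then 7.78 and 2.75% (change -51.4 points, adjusted p = 2.66e-07). In both, late libraries stood far below the lowest middle library.

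On chromosome 2 at 176936001 to 176937000 (7 used CpGs) the level was 76.5, 75.7 and 82.9% early, 51.4, 47.0 and 56.0% at middle passages and 3.96 and 2.61% late (change -48.1 points, adjusted p = 7.26e-08). The chromosome 18 tile at 77539001 to 77540000 (8 used CpGs) kept more, with 87.4, 87.1 and 86.2%, then 67.0, 56.6 and 55.1%, then 17.9 and 11.8% (change -44.7 points, adjusted p = 3.15e-07). All 6 of these calls held in every alternative run for them. In each, early, middle and late libraries formed 3 separate ranges.

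In 3 deeply read tiles no methylated read was seen in either late library. On chromosome 1 at 1953001 to 1954000 (7 used CpGs) the level was 76.4, 86.1 and 74.5% early and 67.3, 33.8 and 16.5% at middle passages. The 84 reads of passage 27 and 107 of passage 28 allow a level of up to 4.37% and 3.47% by the Wilson interval. The chromosome 19 tile at 6754001 to 6755000 (6 used CpGs) came from 80.4, 71.2 and 75.4% by way of 45.1, 40.0 and 36.2%. Its 122 and 76 late reads allow up to 3.05% and 4.81% by the same interval.

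On chromosome 21 at 46902001 to 46903000 (6 used CpGs) the order was different. Its levels were 80.4, 78.5 and 78.1% early, then 25, 38.6 and 44.6% in order of the middle passages. The 88 and 124 reads of its late libraries allow up to 4.18% and 3.00% by the Wilson interval. The lowest middle library was thus the first, and the late minus middle change was -36.1 points (limma-moderated F test, adjusted p = 4.23e-07).

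**Figure D4:**
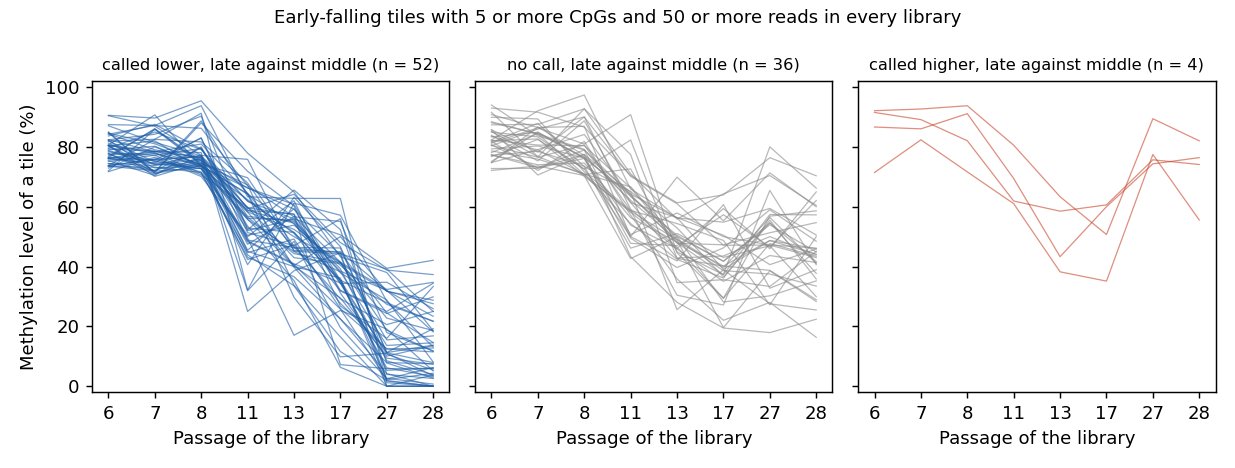
Methylation level in percent by library for each of the 92 deeply read early-falling tiles (1 line per tile), in panels by the call of late against middle passages. At passage 28 the 52 tiles called lower lie between 0 and 42.1%, the 36 without a call between 16.4 and 70.3%, and the 4 called higher between 55.6 and 82.0%.

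Of the largest rises among deeply read tiles, 4 were called. On chromosome 17 at 7605001 to 7606000 (6 used CpGs) the level was 92.1, 92.6 and 93.8% early, 80.6, 63.3 and 50.7% at middle passages, and 89.4 and 82.0% at late ones (change 20.8 points, adjusted p = 0.00497). On chromosome 11 at 66620001 to 66621000 (5 used CpGs) it was 71.4, 82.4 and 71.6%, then 61.0, 38.2 and 35.1%, then 77.5 and 55.6% (change 21.7 points, adjusted p = 0.0149). In the first of these the late libraries lay above all middle libraries, and in the second passage 28 lay below passage 11.

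On chromosome 10 at 60086001 to 60087000 (7 used CpGs) levels of 86.6, 86.0 and 91.1% became 69.4, 43.3 and 60% and then 74.3 and 76.4% (change 17.8 points, adjusted p = 0.0409). The tile on chromosome 16 at 89342001 to 89343000 (9 used CpGs) had 91.5, 89.1 and 82.1%, then 61.9, 58.5 and 60.6%, then 75.7 and 74.1% (change 14.6 points, adjusted p = 0.0434). A further tile, on chromosome 21 at 45184001 to 45185000 (6 used CpGs), went from 85.1, 76.7 and 70.7% through 72.6, 44.9 and 37.3% to 80 and 66.2% and was not called (21.5 points, adjusted p = 0.0936, and 0.00319 without passage 11). Without passage 27 all 4 lost their call (adjusted p between 0.0814 and 0.375), with changes of 17.2, 10.8, 18.8 and 13.8 points in the order given. They also lost it with limma on logit levels, with a linear passage term and with no minimum of reads in each state.

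The tiles with the most used CpGs gave the most precise course. On chromosome 19 at 579001 to 580000, 17 used CpGs and 183 or more reads per library gave 73.5, 73.2 and 71.4% early, 43.1, 36.6 and 22.4% at middle passages and 7.91 and 7.51% late. The Wilson interval was 17.7 to 28.0% at passage 17 and 4.86 to 11.4% at passage 28, so these did not overlap (late minus middle change -26.3 points, adjusted p = 1.12e-05). This tile fell at each step from passage 6 to passage 28.

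The chromosome 9 tile at 140126001 to 140127000 (15 used CpGs, 234 or more reads) had 75.2, 77.2 and 70.6%, then 59.8, 43.0 and 41.0%, then 31.8 and 27.6% (change -18.2 points, adjusted p = 0.00215, and 0.0550 without passage 28). Another tile of chromosome 9, at 99839001 to 99840000 (13 used CpGs), had 78.5, 74.3 and 72.8%, then 42.3, 47.3 and 27.7%, then 12.5 and 11.5% (change -27.1 points, adjusted p = 3.61e-05). In these 3 tiles early, middle and late libraries did not overlap. A tile with as many used CpGs as the last, on chromosome 16 at 460001 to 461000 (13 used CpGs, 175 or more reads), was added after its values were seen. It had 74.8, 86.7 and 77.1%, then 62.1, 49.0 and 38.6%, then 37.5 and 33.5%, and its change of -14.4 points was not called (adjusted p = 0.0524).

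Deeply read tiles on either side of the 25 point limit had unlike ends. Just inside, the tile on chromosome 17 at 80199001 to 80200000 went from 76.6% at passage 7 to 31.1% at passage 17 and 7.35% at passage 28, and the tile on chromosome 14 at 105478001 to 105479000 from 74.3% to 50% and 28.8%. Just outside, the tile on chromosome 8 at 38352001 to 38353000 went from 72.7% to 40.9% and 5.92%, and that on chromosome 16 at 1810001 to 1811000 from 95.2% to 62.6% and back to 81.1%.

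Few early-falling tiles lay close together. Of the 499, 479 had no other early-falling tile within 10 kb. The other 20 (4.01%, against 1.64% of the other starting tiles with an early-falling tile that near) formed 10 pairs, 2 of them of adjoining tiles. Only 93 of the 499 adjoined a starting tile, so most had no adjoining tile that could have been chosen. No run was longer than a pair, and the first pairs in chromosome order, both on chromosome 1, are given here. The tiles at 3484001 to 3485000 and 3492001 to 3493000 stood at 75.3% ± 1.75 and 85.5% ± 7.69 early (SD, n = 3 libraries), at 48.2% ± 8.08 and 53.2% ± 12.9 at middle passages (SD, n = 3), and at 33.8 and 46.4% on average late. The adjoining tiles at 3516001 to 3517000 and 3517001 to 3518000 went from 77.3% ± 3.96 and 71.2% ± 0.798 through 47.5% ± 11.1 and 39.2% ± 10.9 (SD, n = 3 each) to 11.0 and 3.96%. The adjoining pair was called lower at late passages (limma-moderated F test, adjusted p = 0.000743 and 1.07e-05), and the first pair was not (adjusted p = 0.0840 and 0.536, the former 0.0319 without passage 17).

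Starting tiles near an early-falling tile, though not chosen themselves, had larger median falls than distant ones. The 89 that adjoined one changed by a median of -6.19 points from early to middle passages and by -15.4 points from middle to late. At 2 to 5 tiles away (309 tiles) the medians were -3.35 and -12.3, and at 6 to 10 tiles away (298 tiles) -2.80 and -10.6. Starting tiles more than 10 tiles from any early-falling tile (41722) changed by -2.01 and -4.56 points. A fall of 10 points or more by the middle passages was seen in 28.1%, 20.4%, 21.8% and 12.4% of them, in the same order. These neighbours share chromosome regions, so the medians are given without a test.

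Position along the chromosome differed between early-falling and other starting tiles. Distance was taken to the outermost CpG listed on the chromosome in any library. Of the early-falling tiles 218 (43.7%) lay within 5 Mb of it, against 25.1% of the other starting tiles, and of the deeply read ones 60.9% against 39.4%. By distance, early-falling tiles made up 1.72% of starting tiles in the outermost 1 Mb (48 of 2793), 2.11% from 1 to 5 Mb (170 of 8063), 1.07% from 5 to 20 Mb (124 of 11555) and 0.766% farther in (157 of 20506). The Wilson interval of the 1 to 5 Mb class, 1.82 to 2.45%, lies above that of the innermost class, 0.655 to 0.895%.

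Near chromosome ends a larger share of tiles was called lower late, and no test of that difference was made. Within 5 Mb, 38.1% of the early-falling tiles were called lower at late passages and the median late level was 34%. Farther in, 19.6% were called lower and the median late level was 52.4%. The other starting tiles showed the same order, with 33.0% called lower within 5 Mb and 13.7% farther in. The tiles near the ends held more listed CpGs (median 8 against 5) and slightly more reads in the shallowest library (median 35 against 31), and the part of these in the difference was not tested.

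**Figure D5:**
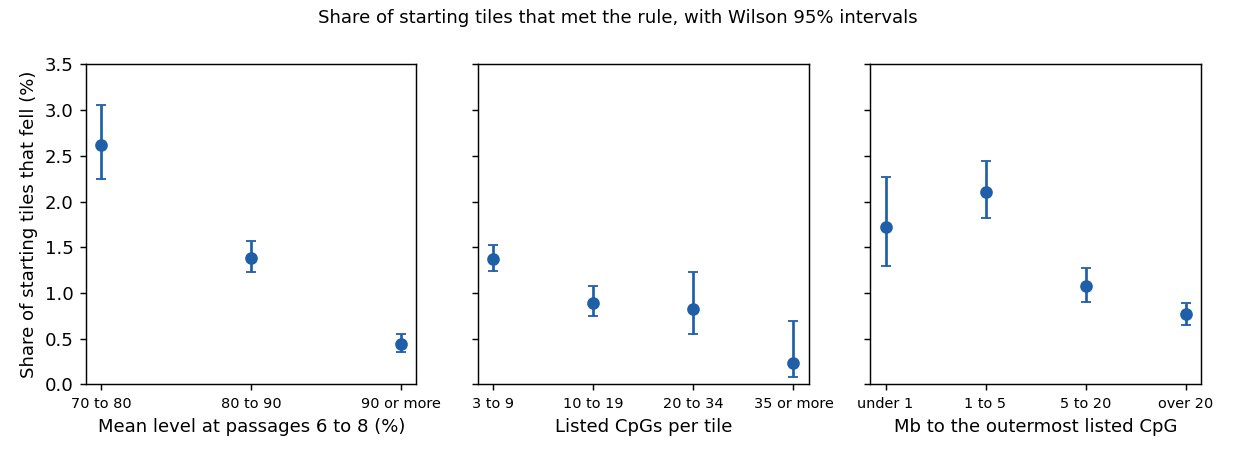
Share of starting tiles that were early-falling, in percent, by mean level at passages 6 to 8, by CpGs listed per tile and by distance in Mb to the outermost listed CpG of the chromosome; bars are Wilson 95% intervals. The share is highest at 2.62% for a start of 70 to 80% and at 2.11% for 1 to 5 Mb from the end, and falls to 0.237% in tiles with 35 or more listed CpGs.

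By chromosome, the share of starting tiles that fell early ran from 0.261% on chromosome 15 (3 of 1148, Wilson interval 0.0889 to 0.766%) to 1.74% on chromosome 19 (55 of 3169, 1.34 to 2.25%). Chromosome 20 with 1.68%, chromosome 9 with 1.57% and chromosome 8 with 1.53% followed chromosome 19, and their intervals overlap with its own. Chromosome 5 had the second lowest share, 0.589% (12 of 2039).

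CpG density was taken from the CpGs listed in any library and not from the sequence. By this measure early-falling tiles had a low density, close to that of other starting tiles, while their surroundings were somewhat denser. They held a median of 7 listed CpGs (interquartile range 4 to 10) against 8 (5 to 13). Within 5 kb either side, the median was 38 listed CpGs (17 to 67.5) against 27 (14 to 55). Tiles with 3 to 9 listed CpGs were early-falling in 1.37% of cases (359 of 26132), those with 10 to 19 in 0.896%, those with 20 to 34 in 0.824% and those with 35 or more in 0.237% (3 of 1264).

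Start level and density were linked in the share of starting tiles that fell early. Early-falling tiles made up 2.62% of tiles that started between 70 and 80%, 1.39% of those between 80 and 90% and 0.446% of those at 90% or more. Among tiles starting between 70 and 80%, the order by density was not the same, with 2.39% at 3 to 9 listed CpGs, 2.77% at 10 to 19, 4.80% at 20 to 34 (13 of 271, Wilson interval 2.82 to 8.03%) and 3.53% at 35 or more. Among those at 90% or more it ran from 0.638% in the sparsest class to 0 of 855 tiles in the densest, which allows a share of up to 0.447% by the Wilson interval.

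The median late level was lower in classes of denser early-falling tiles. With 3 to 9 listed CpGs the median late level was 49.1% and the median late minus middle difference -2.31 points, with 74 of 359 called lower and 37 called higher. With 10 to 19 these were 37.5% and -14.2 points (46 of 114 lower, 7 higher), and with 20 to 34 they were 28.6% and -23.7 points (15 of 23 lower, 0 higher). All 3 tiles with 35 or more were called lower, with a median of 7.71% late. Of the other starting tiles, 4106 of 25773, 2465 of 12615 and 667 of 2769 were called lower in the first 3 classes, a share that also rose. In the densest class 186 of 1261 were. In the same order 209, 42, 3 and 1 were called higher. These counts are over all tiles of a class, with those not tested for too few reads of a state, while every early-falling tile was tested. The median difference of the other starting tiles did not deepen with density, from -4.79 points in the sparsest class to -2.24 in the densest. Depth moved with this result, since tiles under 30 reads in the shallowest library had a median difference of -3.73 points, those with 30 to 50 had -5.66, those with 50 to 100 had -15.3 and those with 100 or more had -24.8. Its part in the result was not tested.

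A higher start went with a higher end in early-falling and in other starting tiles. Early-falling tiles that started between 70 and 80% had a median of 31.6% late, and 68 of 159 were called lower and 5 higher. Those starting between 80 and 90% had 46.5% late, with 61 of 259 called lower and 24 higher. Those at 90% or more had 69.0% late, with 9 of 81 called lower and 15 higher. In the other starting tiles the late medians were 68.4, 76.5 and 89.6% in the same order. Of all these tiles, tested or not, 1402 of 5914, 3829 of 18410 and 2193 of 18094 were called lower, and 18, 96 and 141 higher.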

How the data were processed

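RRBS libraries of 8 passages of HUES64 cells with knockouts of DNMT3A and DNMT3B were used. Each deposited file lists CpGs on hg19, per the submitters' processing notes. Column 4 of each file holds the deposited counts of methylated and total reads per CpG. The deposited score in column 5 is 1000 times their ratio and was not used. Aligner, caller, filters and duplicate removal: not given in the sources used here. Duplicates would make counting intervals too narrow.

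Reads of CpGs with 5 or more reads in all 8 libraries were summed over tiles of 1000 bases (positions counted from 1), and chromosomes X and Y were kept out. Late and middle passages were compared by a quasi-binomial model with 3 groups of passages and a Pearson dispersion moderated by limma 3.58.1 (squeezeVar, not under 1). An F test (two-sided) gave p-values, adjusted by Benjamini-Hochberg over all tiles tested. On simulated data it called 98% of falls and 92% of rises of 40 points, but 28% of falls and 18% of rises of 20 points. Of simulated tiles without a change, 5.22% had an unadjusted p under 0.05. Simulated middle libraries of a tile shared 1 level, unlike the early-falling tiles. The members, lists and settings were chosen with earlier results of these data known. Tiles were named by rule among deeply read ones: the 6 largest early falls, 6 largest called late falls, 6 largest rises, 4 lowest late levels, 3 with most CpGs (ties in chromosome order) and 2 tiles on each side of the limit. Tiles of any depth were named from runs within 10 kb, where all 10 runs tied at 2 tiles and the first 2 were taken. Gene names and sequences are not given, since an hg19 genome was not used here. Replicate spread comes from the passages within each group of libraries. Alternatives changed the read, CpG and fall limits, the start level, the test and the libraries.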

Additional observations from a re-analysis of the deposited data

Results flagged for a closer look

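Chromosome X lay outside the autosomal choice. Of 995 tiles of chromosome X that started at 70% or more in each of passages 6 to 8, 9 met the same limit on the fall (0.905%, Wilson interval 0.477 to 1.71%). The autosomal share of 1.16% lies inside that interval. These tiles are given here because no comparison of the report used that chromosome. Their median level was 87.0% at early, 50.4% at middle and 71.2% at late passages, and 3 of the 9 were lower at late than at middle passages.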

How the results depend on the processing

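The number of early-falling tiles depends on the limits. It was 95 of 4910 starting tiles at 10 reads per CpG, 0 of 469 at 20 reads, 139 with 5 or more CpGs, 1157 for a fall of 20 points, 95 for 35 points, 194 for a start of 80%, 103 with each middle library 25 points below and 92 deeply read. The fewer or more tiles follow from these limits. The share called lower was 42.1% (40 tiles), 47.5% (66), 32.6% (31, fall of 35 points), 18% (35), 32.0% (33) and 56.5% (52) for the limits of 10 reads, 5 CpGs, 35 points, a start of 80%, each library and deep reads. Over all tiles tested it was 35.9% at 10 reads, 30% with 5 CpGs and 24.4% at the others. It was 19.6% (98; all tiles 17.7%) with limma on logit levels and 11.0% (55; all tiles 7.06%) with no minimum of reads in each state. The share called higher was 6.32% (6) for 35 points, 14.4% (28) for a start of 80%, 4.35% (4) deeply read, 3.61% (18) with limma on logit levels, 4.01% (20) with a linear passage term and 2.41% (12) with no minimum of reads. Over all tiles tested it was 0.714% beside the 35 point, 80% and deeply read limits. It was 0.502% with limma, 0.406% with the linear term and 0.0757% with no minimum of reads. The share lower at late passages was 74.7% at 10 reads, 76.3% with 5 CpGs, 47.9% for a start of 80% and 82.6% deeply read, with median differences of -17.5, -15.4, 0.972 (reversed) and -19.2 points, and the cause was not tested. Leaving out 1 library at a time gave 417 to 917 tiles, 19.4 to 32.7% called lower, 4.01 to 11.2% called higher, 54.0 to 65.8% lower late and medians from -10.9 to -2.10 points. Over all tiles tested, leaving out 1 early or middle library gave 21.1 to 25.3% called lower and 0.541 to 0.827% called higher. Of 535 values for 31 named tiles, 479 kept their side of the threshold, 50 lost a call, 6 gained one and 0 reversed. No paired analysis was possible because no passage has more than 1 library here.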
